A study of Homo sapiens with 18 samples.

Results

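The 50 genes described here act in G2 phase and mitosis: CDK1 with its cyclins, the mitotic kinases, the spindle checkpoint, the kinetochore, the kinesins and the machinery of chromosome separation and cytokinesis. They are a given list, sorted here into 11 roles, and all 50 were found among the 60662 genes of the count table, 49 by symbol and KIF23 by its gene identifier, since the table lists that gene under another name. They were measured by RNA sequencing of poly-A RNA in MCF10A, an immortalised, non-malignant human breast epithelial cell line. All cells were seeded sparsely on compliant polyacrylamide gels coated with Matrigel, a laminin-rich basement membrane extract, in medium with horse serum, EGF, insulin, cholera toxin and hydrocortisone. In 3D culture the medium also held 2% Matrigel, which gels around the cells, and in 2D culture fresh medium was given without it. Sampling each culture at 3 timepoints gave 6 groups of 3 libraries: 3D and 2D culture at timepoint 1, at timepoint 2 and at timepoint 3. The protocol names harvests 3, 12 and 21 h after plating, and that timepoint 1 is the earliest of these is read from the order alone. The cells are a single line, and the labels do not say whether the libraries of a group came from separate cultures, so p-values measure the spread between these libraries, which may be technical.

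Entry into mitosis is driven by CDK1 bound to cyclin A or B, which WEE1 and PKMYT1 hold inactive and the CDC25 phosphatases switch on. The checkpoint kinases and MAD2 delay anaphase until all kinetochores hold microtubules. The anaphase-promoting complex (APC/C) with CDC20 and the E2 enzymes UBE2C and UBE2S then marks securin and cyclin B for destruction. The messenger RNAs of these proteins are transcribed together late in the cell cycle, under B-MYB (MYBL2) and FOXM1 bound with the MuvB core. In cells out of cycle the DREAM complex represses them, and they are widely used as a measure of proliferation. In bulk RNA, more cells in G2 and mitosis and more of each RNA per cell cannot be told apart.

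The labelled cell type matched its markers. All 11 basal-like breast epithelial markers passed the filter on low counts, with a summed level of 5710 to 16000 CPM (the depth-scaled count, scaled between libraries by TMM) over the 17 libraries in the tests. PGR had no count in any library, and ESR1 stayed at or under 0.606 CPM. Of the markers of other cells, COL3A1 and CD3E had no count and PTPRC had at most 2. The 4 tested fibroblast markers summed to 117 to 268 CPM, nearly all of it DCN, the 4 endothelial ones to 1.88 to 7.09 CPM, and CD68 with CD14 to 15.2 to 39.4 CPM. Library totals in the deposited file headers were 9.31 M to 17.7 M, while the summed gene counts were 4.73 to 5.73 times as large. Counting intervals are therefore omitted, and levels of different genes are not set against each other. Replicate 1 of 2D culture at timepoint 3 did not enter the tests, since its labels name no table but the raw counts, and that group had n = 2. The library stood apart: 44 of the 50 members were higher in it than in both other libraries of its group, against 39.9% of all genes tested. Its values are given for the members listed by library in 3D over 2D culture at timepoint 3. Other results of that timepoint, such as medians and genes outside the list, rest on the fitted libraries unless stated otherwise. Replicate 3 of timepoint 1 also stood apart in both cultures, and is described with that timepoint.

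Most members shared a pattern over the groups. Of the 50, 47 had their highest group mean in 3D culture at timepoint 3, while CDC25B, CDC25C and ASPM had theirs in 2D culture at timepoint 1. The lowest mean was in 2D culture at timepoint 2 for 36 members and in 2D culture at timepoint 3 for 13, and CDC25B was lowest in 3D culture at timepoint 2. Taking each member's log2 CPM relative to its mean over the fitted libraries, the median member stood at 0.69, 0.30 and 0.95 in the 3 libraries of 3D culture at timepoint 3 and at -0.58, -1.08 and -0.27 in those of 2D culture at timepoint 2. The group means rest on the fitted libraries. In 2D culture at timepoint 3 the median member stood at 0.56 in the left-out library and at -0.73 and -0.03 in the fitted ones. Where each member was lowest was not counted with the left-out library, so the split between the 36 and the 13 holds for the fitted libraries alone. Libraries of 1 group also differed. Within 3D culture at timepoint 2 the median member was at 0.105, -0.56 and 0.33, replicate 2 being the low one, as it was in 2D culture at timepoint 2 and in both cultures at timepoint 3.

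**Figure D1:**
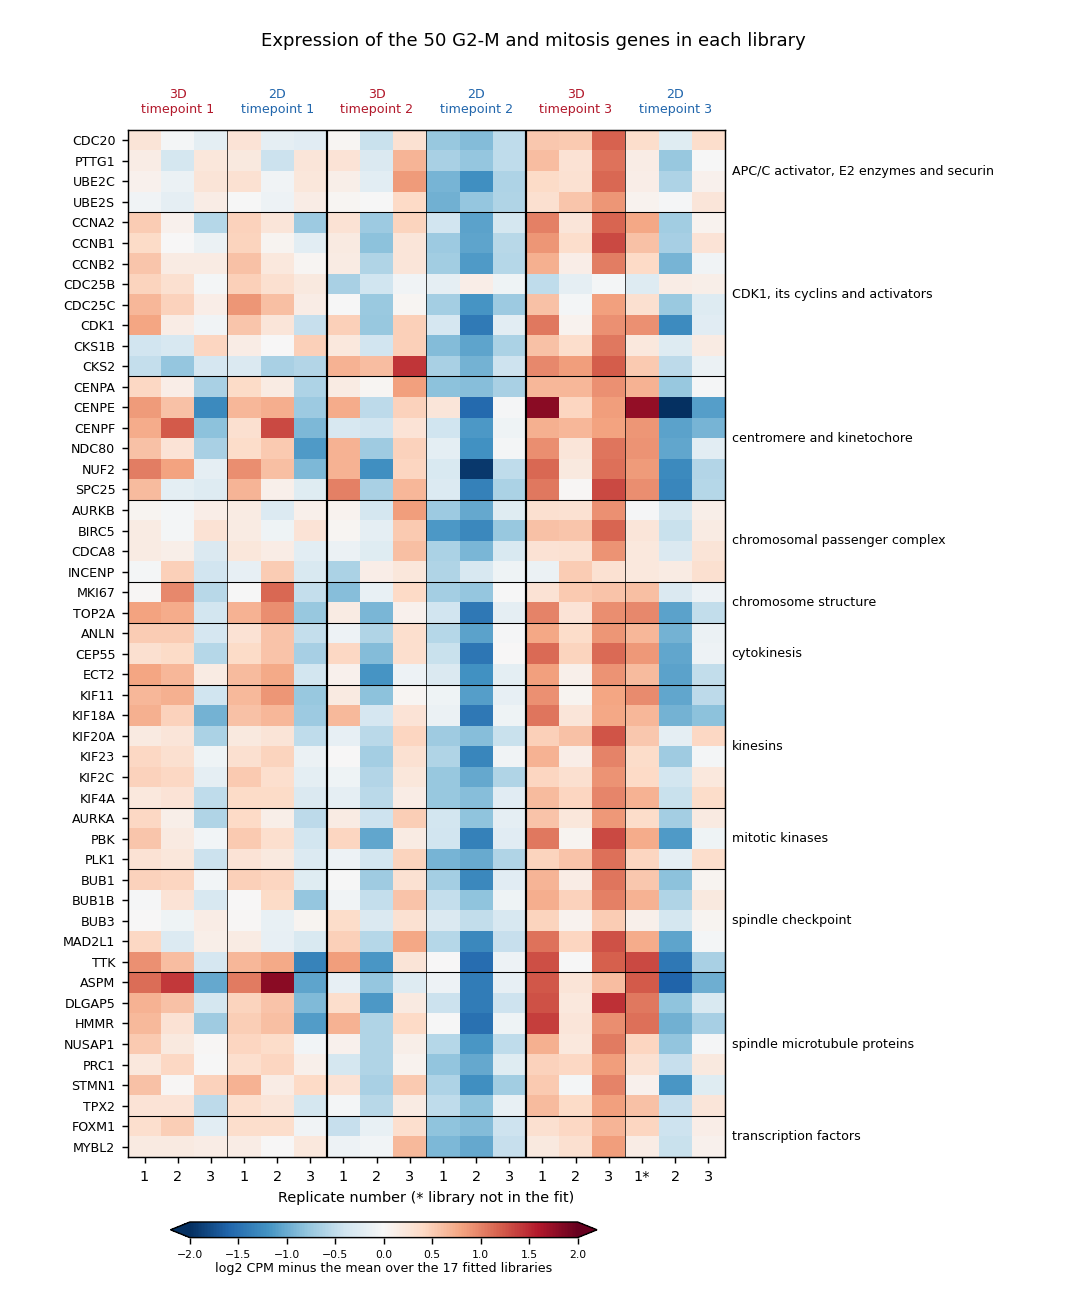
Each row is 1 of the 50 members, grouped by role, and each column 1 library, with 3D left of 2D at each timepoint; colour is the log2 CPM minus the member's mean over the 17 fitted libraries, red for higher and blue for lower. The columns of 3D culture at timepoint 3 are the reddest and those of 2D culture at timepoint 2 the bluest, while the starred library, which is not in the fit, is red in a group whose other libraries are mostly blue.

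The promoters are shown because the members moved together and carry motifs known from late cell cycle genes. These are the CHR (cell cycle genes homology region), the MuvB site, searched as TTTGAA or TTTAAA, and CCAAT, the NF-Y box, all on both strands. RefSeq windows of build GRCh38.p14, from 250 bases before to 50 bases after a transcription start, were matched by symbol for 42 members. BUB3, FOXM1, TPX2, BIRC5, AURKA, PBK, UBE2C and TTK were not matched. A CHR motif was in a window of 36 of the 42 (85.7%), against 27.9% of 27305 genes with windows, and one starting 40 to 10 bases before the start in 20 (47.6%), against 4.23%. CCAAT was present in 35 (83.3%), against 39.7%, and at 2 or more places in 22 (52.4%), against 12.9%. The 110 bases before the start are printed 5′ to 3′ on the strand of the gene for the CDK1 partners CKS2 and CKS1B, cyclins B1 and B2, securin (PTTG1) and PLK1, with CHR and CCAAT letters in capitals on either strand, and for UBE2S and MYBL2, which had neither motif in these bases.
CKS2 (chr9:89311085-89311194, plus strand): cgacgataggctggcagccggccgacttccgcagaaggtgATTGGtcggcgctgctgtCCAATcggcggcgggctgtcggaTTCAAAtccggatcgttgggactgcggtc
CKS1B (chr1:154974571-154974680, plus strand): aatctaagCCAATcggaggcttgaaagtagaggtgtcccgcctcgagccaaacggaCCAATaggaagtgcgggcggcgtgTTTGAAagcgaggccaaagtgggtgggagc
CCNB1 (chr5:69167040-69167149, plus strand): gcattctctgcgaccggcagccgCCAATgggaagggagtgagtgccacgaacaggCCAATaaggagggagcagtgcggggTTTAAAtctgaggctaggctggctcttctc
CCNB2 (chr15:59105036-59105145, plus strand): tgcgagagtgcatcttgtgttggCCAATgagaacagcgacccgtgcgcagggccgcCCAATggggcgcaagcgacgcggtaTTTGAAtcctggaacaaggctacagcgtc
PTTG1 (chr5:160421745-160421854, plus strand): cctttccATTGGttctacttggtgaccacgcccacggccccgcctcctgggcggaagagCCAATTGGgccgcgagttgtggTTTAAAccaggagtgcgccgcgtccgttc
PLK1 (chr16:23678779-23678888, plus strand): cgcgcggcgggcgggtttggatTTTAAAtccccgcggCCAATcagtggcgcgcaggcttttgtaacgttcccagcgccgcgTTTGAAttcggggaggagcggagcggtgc
UBE2S (chr19:55407789-55407898, minus strand): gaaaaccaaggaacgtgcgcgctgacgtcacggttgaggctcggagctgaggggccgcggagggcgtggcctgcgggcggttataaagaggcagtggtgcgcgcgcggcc
MYBL2 (chr20:43667004-43667113, plus strand): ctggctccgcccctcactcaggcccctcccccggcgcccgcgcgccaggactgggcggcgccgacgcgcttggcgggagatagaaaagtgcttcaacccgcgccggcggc
In the first 6 a CHR motif began 29 or 30 bases before the start, on the reverse strand in CKS2, and the nearest CCAAT box began 48 to 73 bases before it. The printed genes were chosen for display. For a gene with several starts, a window with a CHR motif 40 to 10 bases before the start was preferred. At the other start of PTTG1 the CHR motif began at base -84 relative to that start. In PTTG1 boxes of both strands overlap by 2 letters. A match is a description of letters and not of binding. The 36 members with a CHR motif in a window had a median log2 fold change, 3D over 2D, of 0.65 at timepoint 2 and 1.12 at timepoint 3, and the 6 without had 0.92 and 0.82, with overlapping ranges.

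At timepoint 1 no difference between 3D and 2D culture was called in the members. A gene is called here when edgeR's quasi-likelihood test gives a Benjamini-Hochberg adjusted p under 0.05 over the 18592 genes tested. By that rule 0 of 50 members were higher or lower, as were 0.0% of all genes in each direction. In the same test 0 members had an unadjusted p under 0.05, against 1.31% of all genes. DESeq2, limma-voom and the edgeR fit blocked on replicate number also called 0. Shares of all genes called are given for edgeR with and without the block, and not for the other alternatives. The median member had a log2 fold change of -0.00, with 25 above and 25 below 0 and a range of -0.28 (CKS1B) to 0.24 (NUF2). In 0 members did the libraries of 3D culture all lie above those of 2D culture or all below, against 1.43% and 1.84% of all genes. The replicates, each with its own date in the labels, differed more: replicate 3 was lower than the mean of replicates 1 and 2 in 40 members in 3D culture and 42 in 2D culture, by a median of -0.55 and -0.64 on the log2 scale over the 50 members. The matching medians of all genes tested were -0.06 and -0.04. ASPM, a spindle pole protein with a long transcript, had 25.3, 31.2 and 5.51 CPM in 3D culture and 23.8, 40.9 and 5.43 CPM in 2D culture, the third library being low in both. CKS1B, a short transcript, was instead higher in replicate 3, at 11.1, 11.7 and 19.7 CPM in 3D culture and 16.2, 14.6 and 20.5 CPM in 2D culture. Over the 50 members the difference of replicate 3 from the mean of replicates 1 and 2 correlated with the log2 length of the main transcript at a Pearson r of -0.64 in 3D culture and -0.52 in 2D culture (Spearman rho -0.53 and -0.465). Over the 18398 tested genes with a length the Pearson r was -0.36 and -0.34 (Spearman rho -0.408 and -0.38). Cytosolic ribosomal protein genes took 13.6% of counts in replicate 3 of 3D culture and 13.2% in replicate 3 of 2D culture, against 6.42% to 8.13% in replicates 1 and 2 of both cultures. Mitochondrially encoded genes took 0.376% and 0.497% in those 2 libraries, against 0.745% to 0.992% in replicates 1 and 2. The part of RNA composition in the difference between these replicates was not tested.

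At timepoint 2, 49 of 50 members had a positive log2 fold change of 3D over 2D culture, CDC25B being the exception. The edgeR test called 5 of 50 members higher, CKS2, UBE2S, BIRC5, MYBL2 and UBE2C, and 0 lower, against 0.705% and 0.785% of all genes. With the block 17 were called higher and 0 lower, against 9.0% and 6.86%. The median member was at 0.65, and the median of all genes tested at -0.03. In the authors' deposited table for this timepoint 5 members had an adjusted p under 0.05, all higher, and the median member was at 0.61 on the log2 scale.

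CKS2, a small subunit that binds CDK1 and helps it dock on its substrates (chr9:89311195-89316703 in hg38, forward strand), changed most. It had 25.1, 23.7 and 42.0 CPM in the 3 libraries of 3D culture at timepoint 2, against 9.76, 7.86 and 11.5 CPM in 2D culture. Every library of 3D culture lay above every one of 2D culture, and the log2 fold change was 1.64 ± 0.23 (SE), 3.11-fold, with an edgeR adjusted p of 0.0113 (0.0655 at most over the alternatives). Its relative CKS1B (chr1:154974681-154979251, forward strand), which has 6 named pseudogenes in the table, had 16.9, 11.2 and 20.4 CPM in 3D culture and 7.94, 6.895 and 9.34 CPM in 2D culture. Those groups did not overlap either, yet CKS1B passed with the block and not without it (log2 fold change 1.00 ± 0.27, edgeR adjusted p = 0.0675, and 0.000824 with the block). Among the other CDK1 partners and activators, CCNB2 passed with the block (0.77), and CDK1, CCNA2, CCNB1 and CDC25C, at 0.66 to 0.74, passed in neither fit.

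The ubiquitin enzymes and securin were the role with the most calls. UBE2S, the E2 enzyme that extends ubiquitin chains on APC/C substrates (chr19:55399745-55407788, reverse strand), had 31.4, 30.4 and 40.2 CPM in 3D culture and 15.6, 17.6 and 19.9 CPM in 2D culture. UBE2C, the E2 enzyme that starts those chains (chr20:45812635-45816957, forward strand), had 101.6, 80.6 and 168.7 CPM in 3D culture and 49.2, 39.7 and 61.0 CPM in 2D culture. Both had 3D libraries above all 2D libraries, and their log2 fold changes were 0.94 ± 0.18 and 1.23 ± 0.29 (edgeR adjusted p = 0.0248 and 0.046, and up to 0.106 and 0.179 over the alternatives). PTTG1, securin, and CDC20, the APC/C activator, were at 0.91 and 0.71 and passed with the block. UBE2C, UBE2S, PTTG1 and CDC20 have named copies in the table that could share their reads.

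In the chromosomal passenger complex, which corrects wrong kinetochore attachments and later drives cytokinesis, BIRC5 (survivin, chr17:78214186-78225636, forward strand) was called. It had 82.05, 70.7 and 115.2 CPM in 3D culture and 35.8, 32.7 and 47.45 CPM in 2D culture, with no overlap (log2 fold change 1.21 ± 0.23, edgeR adjusted p = 0.0248, up to 0.12 over the alternatives). Its partners AURKB, the kinase of the complex, and CDCA8 (borealin) were at 0.90 and 0.75 and passed with the block, and the scaffold INCENP, at 0.28, passed in neither fit. Of the transcription factors, MYBL2 (B-MYB, chr20:43667114-43716482, forward strand) had 57.9, 59.7 and 97.1 CPM in 3D culture and 33.2, 30.25 and 44.9 CPM in 2D culture. Its groups did not overlap (0.99 ± 0.23, edgeR adjusted p = 0.0456, up to 0.179 over the alternatives), and FOXM1, at 0.63, passed in neither fit.

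The other roles held fewer calls. In the spindle checkpoint MAD2L1 (MAD2, which holds CDC20 inactive) and BUB3 passed with the block, at 1.07 and 0.52, while BUB1, BUB1B and TTK did not. Of the kinetochore and centromere genes CENPA, the histone H3 variant of centromeres, and SPC25, of the NDC80 complex, passed with the block, at 1.19 and 1.28, and CENPE, CENPF, NDC80 and NUF2 did not. PLK1 (0.87) and STMN1, a microtubule-destabilising protein (0.96), were the calls with the block among the mitotic kinases and the spindle proteins. None of the 6 kinesins, at 0.26 to 0.76, the 3 cytokinesis genes, at 0.20 to 0.60, or TOP2A and MKI67, at 0.44 and 0.33, passed in either edgeR fit. Of these 11 genes, KIF2C alone had an unadjusted p under 0.05.

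CDC25B, a phosphatase that activates CDK1 at the start of mitosis (chr20:3795835-3806118, forward strand), was the member below 0. It had 202.1, 239.6 and 302.7 CPM in 3D culture at timepoint 2 and 279.4, 348.5 and 299.7 CPM in 2D culture, with overlapping groups and no call (log2 fold change -0.32 ± 0.18, edgeR adjusted p = 0.336). In 13 members every library of 3D culture at timepoint 2 lay above every one of 2D culture, against 14.8% of all genes. Set against the 2D library of the same replicate number, 46 members were higher in 3D culture in all 3 pairs, against 26.9% of all genes. The exceptions were CDC25B, INCENP, MKI67 and ASPM. The count of calls without the block moved with single libraries. It was 0 without replicate 1 of 3D culture or replicate 2 of 2D culture, 1 without replicate 3 of 3D culture or replicate 1 or 3 of 2D culture, and 6 without replicate 2 of 3D culture. The number of all genes called in those fits moved as well, from 0 to 216.

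**Figure D2:**
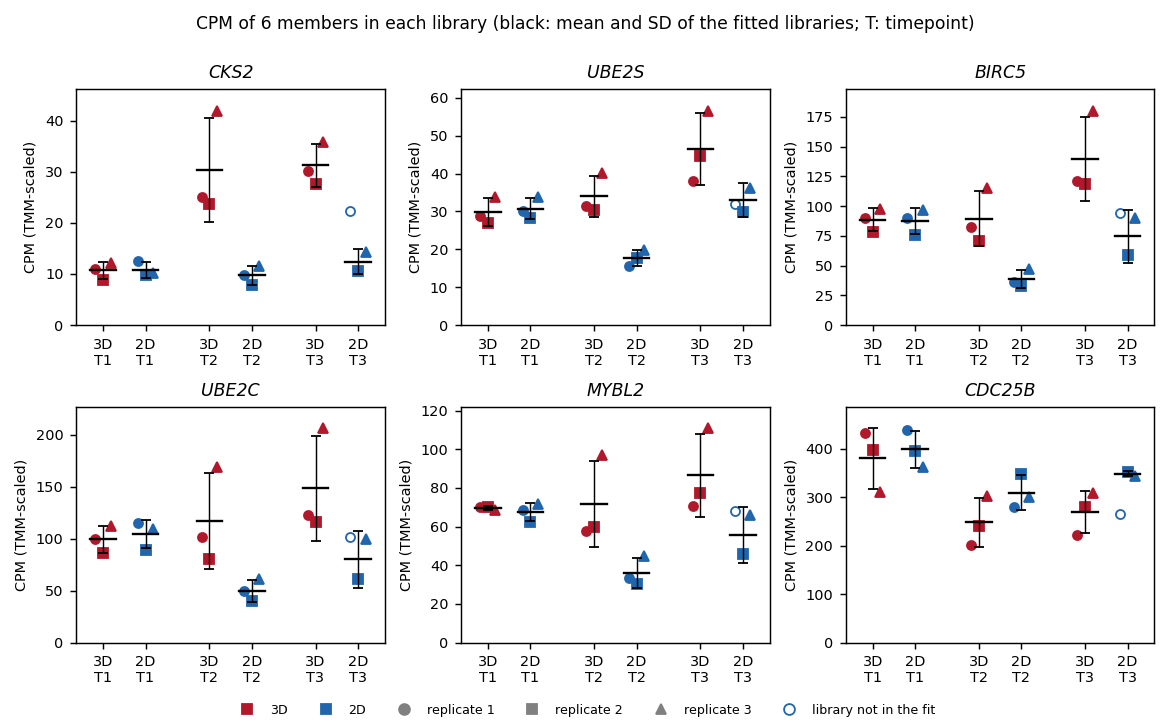
TMM-scaled CPM in each library for the 5 members called higher in 3D culture at timepoint 2 and for CDC25B, by group, with 3D left of 2D at each timepoint; symbols mark the replicate number, the black bar and whiskers are the mean and SD of the fitted libraries, and the open circle is the library not in the fit. At timepoint 2 the 5 called members have every 3D point above every 2D point, and CDC25B does not.

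At timepoint 3 again 49 of 50 members were above 0 and CDC25B below. Fewer than at timepoint 2 passed the edgeR test without the block (1 against 5), and more with it (19 against 17). More also had an unadjusted p under 0.05 (43 against 22, where 19.1% and 20.1% of all genes did). The median member had a log2 fold change of 1.03, and 43 had an unadjusted p under 0.05, against 19.1% of all genes. After adjustment the edgeR test called CKS2 alone, 1 member higher and 0 lower, against 0.231% and 1.26% of all genes. With the block 19 were called higher and 0 lower, against 4.45% and 5.3%. That number was 8 when replicate 1, which lacks its 2D library here, was left out of the blocked fit. DESeq2 called 22. In the authors' deposited table CKS2 was also the single member with an adjusted p under 0.05, and the median log2 fold change was 1.02.

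CKS2 had 30.2, 27.6 and 35.8 CPM in 3D culture at timepoint 3, against 10.6 and 14.2 CPM in the 2 fitted libraries of 2D culture and 22.3 CPM in the one left out. The 3D libraries lay above all 3, by 1.33 ± 0.27 in the fit (edgeR adjusted p = 0.021). With all 18 libraries the log2 fold change was 0.99, with an edgeR adjusted p of 0.303 (0.0192 with the block). In the fit of 17 libraries the call was lost without replicate 1 or 3 of 3D culture or either library of 2D culture, with adjusted p of up to 0.394.

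The next members, by role, did not pass without the block. CENPE, a kinetochore motor that moves chromosomes to the metaphase plate (chr4:103105806-103198409, reverse strand), had the largest difference. It had 19.4, 7.34 and 9.77 CPM in 3D culture against 1.02 and 2.38 CPM in the fitted 2D libraries, but 18.7 CPM in the one left out. MAD2L1 (chr4:120055623-120066848, reverse strand, with an antisense gene) had 58.5, 37.3 and 66.9 CPM in 3D culture against 13.02 and 26.7 CPM in the fitted 2D libraries and 46.1 CPM in the one left out. For both, the fitted groups did not overlap and the left-out library lay among the 3D ones. The log2 fold changes were 2.83 ± 0.75 and 1.45 ± 0.41 (edgeR adjusted p = 0.0734 and 0.0892, and 0.0345 and 0.00339 with the block). BIRC5 had 120.7, 118.2 and 180.2 CPM in 3D culture against 59.0 and 90.0 CPM in the fitted 2D libraries and 94.3 CPM in the one left out, so that all 3D libraries were the higher ones (0.91 ± 0.26, edgeR adjusted p = 0.0977, 0.000672 with the block).

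PTTG1 had 215.6, 173.1 and 299.7 CPM in 3D culture at timepoint 3 against 83.1 and 140.8 CPM in the fitted 2D libraries and 157.2 CPM in the one left out. NUSAP1, which bundles spindle microtubules near chromatin (chr15:41332694-41381050, forward strand, overlapped by a gene on the same strand), had 167.1, 118.2 and 208.9 CPM in 3D culture against 59.0 and 100.2 CPM in the fitted 2D libraries and 137.4 CPM in the one left out. The left-out library lay below all 3D ones for PTTG1 and above replicate 2 of 3D culture for NUSAP1. The log2 fold changes were 1.03 and 1.05, and both passed with the block. MYBL2 had 70.8, 77.5 and 111.0 CPM in 3D culture against 45.6 and 65.9 CPM in the fitted 2D libraries and 68.3 CPM in the one left out (0.63 ± 0.26, edgeR adjusted p = 0.199, 0.02 with the block).

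ECT2, the exchange factor that starts the cleavage furrow, had 76.15, 46.0 and 80.05 CPM in 3D culture at timepoint 3 against 20.2 and 30.5 CPM in the fitted 2D libraries and 67.1 CPM in the one left out. TOP2A, which untangles sister chromatids, had 55.8, 34.0 and 53.5 CPM in 3D culture against 13.2 and 19.9 CPM in the fitted 2D libraries and 54.9 CPM in the one left out. KIF18A, a kinesin that dampens chromosome movement, had 5.32, 2.90 and 4.32 CPM in 3D culture against 1.135 and 1.255 CPM in the fitted 2D libraries and 3.99 CPM in the one left out. These 3 did not overlap among fitted libraries, at log2 fold changes of 1.41, 1.53 and 1.80, but the left-out library lay within the 3D range of each. They passed in neither edgeR fit (adjusted p = 0.114, 0.144 and 0.138, and 0.0546, 0.1 and 0.0869 with the block). PBK, a mitotic kinase, was the member of its role with the smallest p, at 38.6, 19.2 and 46.4 CPM in 3D culture, 8.27 and 17.3 CPM in the fitted 2D libraries and 31.0 CPM in the one left out, and passed with the block.

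By role, the calls with the block at timepoint 3 were CCNB1, CCNB2, CDC25C, CDK1, CKS1B and CKS2 of the CDK1 group, PTTG1, UBE2C and UBE2S of the APC/C group, AURKB and BIRC5 of the passenger complex, MAD2L1 and BUB3 of the checkpoint, CENPE and SPC25 of the kinetochore, NUSAP1 and STMN1 of the spindle proteins, PBK of the kinases and MYBL2. In the fitted libraries the median log2 fold changes were largest in the kinetochore (1.78) and cytokinesis (1.41) genes and smallest in the passenger complex (0.58) and the transcription factors (0.61). Between replicate 1 of 3D culture and the left-out library the kinetochore genes differed by -0.17 (CENPF) to 0.285 (NUF2) on the log2 scale. Cytokinesis genes differed by 0.12 to 0.27, the passenger complex by -0.32 (INCENP) to 0.36 (BIRC5), and FOXM1 and MYBL2 by -0.11 and 0.05. The roles were not ranked with that library. At timepoint 2 the passenger complex (0.83), kinetochore (0.84) and APC/C (0.93) roles had the largest medians, and chromosome structure (0.38) and cytokinesis (0.42) the smallest. CDC25B was at -0.37 and INCENP at 0.01 at timepoint 3, and neither passed.

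**Figure D3:**
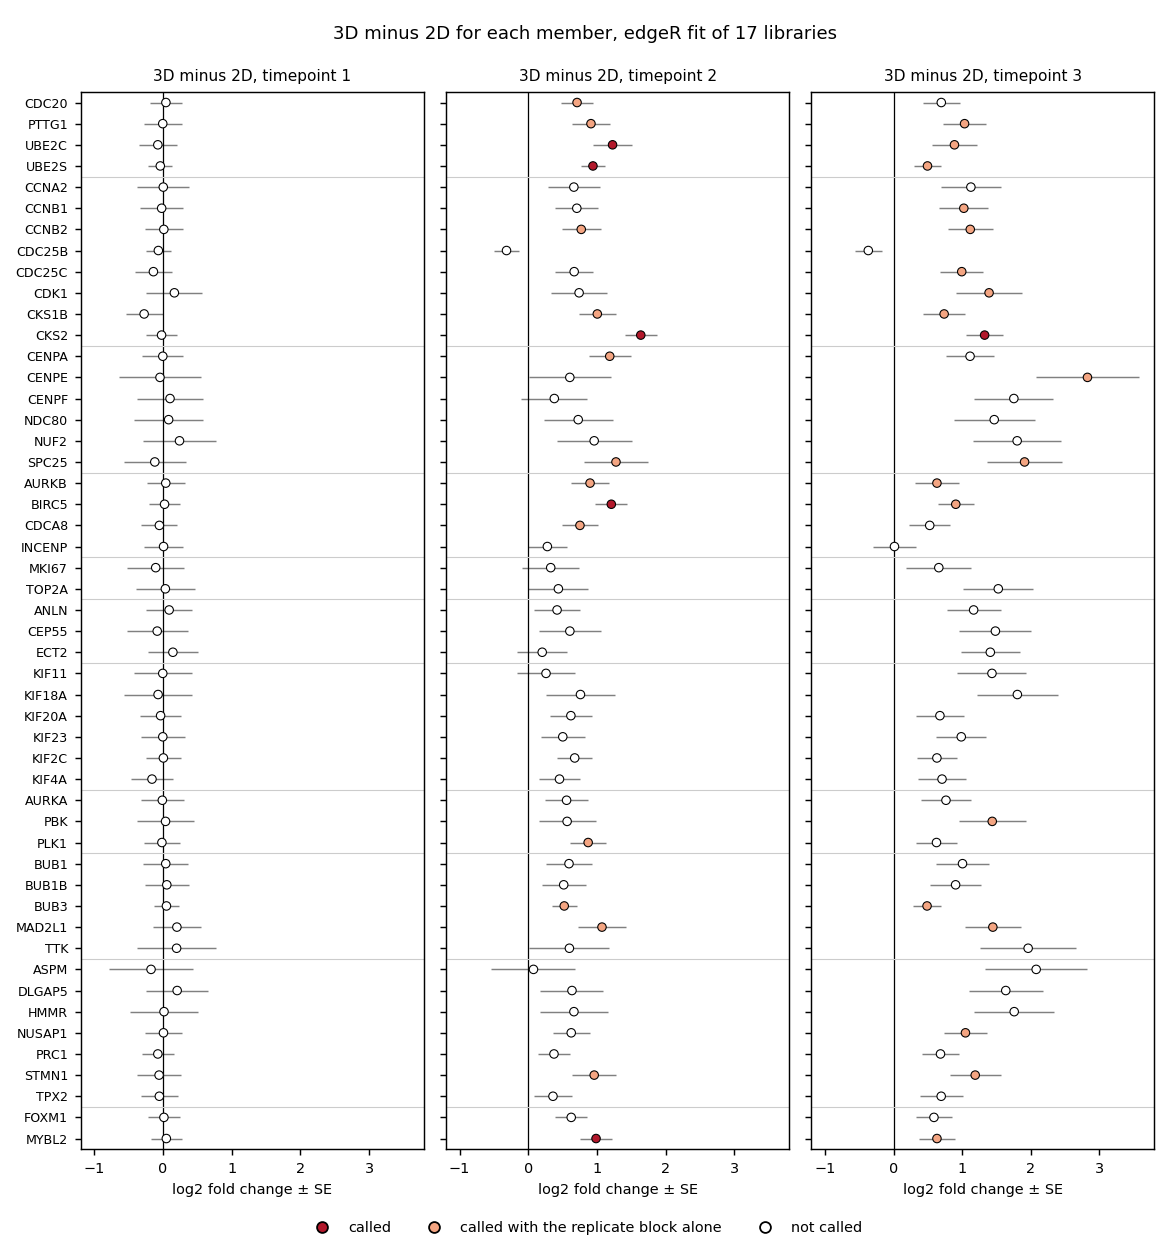
Log2 fold change of 3D over 2D culture with its standard error for each of the 50 members at timepoints 1, 2 and 3, grouped by role; filled dark red circles passed the edgeR test, light ones passed with the replicate block alone and white ones passed in neither. At timepoint 1 the values lie around 0, and at timepoints 2 and 3 all but CDC25B lie above 0.

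How far the members differed at timepoint 3 depended on the left-out library. In the 17 fitted libraries 48 members had every 3D library above every 2D library, and CDC25B was the 1 member lower in every 3D library, against 18.9% and 20.2% of all genes. With all 18 libraries the number above was 12, against 7.11% of all genes, and the number below 0, against 7.67%. The 12 were CDC20, PTTG1, UBE2C, UBE2S, CKS1B, CKS2, AURKB, BIRC5, CDCA8, PLK1, PRC1 and MYBL2. The edgeR fit of all 18 libraries called 0 members at timepoint 3, or 11 with the block, and the median member was at 0.685. Between same-numbered libraries the median member differed by 0.17 in pair 1, which holds the left-out library, and by 1.00 and 1.04 in pairs 2 and 3. At timepoint 2 the 3 pairs gave 0.69, 0.57 and 0.67. In all 3 pairs of timepoint 3, 40 members were higher in 3D culture, against 25.6% of all genes.

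**Figure D4:**
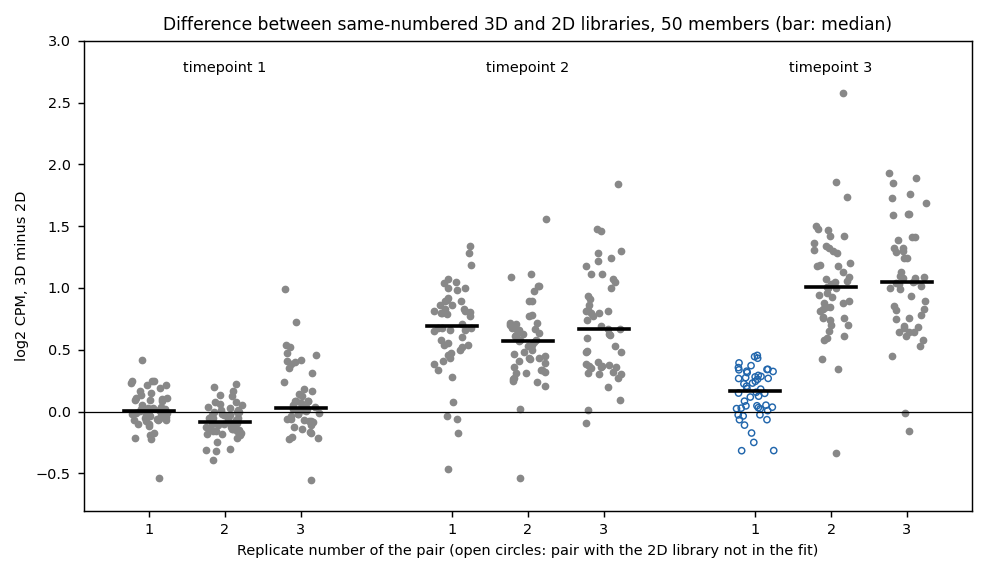
Each point is the log2 CPM of 1 member in a 3D library minus that in the 2D library of the same replicate number, for the 3 pairs of each timepoint, and black bars are medians over the 50 members; open circles mark the pair whose 2D library is not in the fit. The medians are near 0 at timepoint 1, 0.57 to 0.69 at timepoint 2, and 0.17, 1.00 and 1.04 at timepoint 3.

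Within 2D culture the members were lower at timepoint 2 than at timepoint 1. At timepoint 2 against timepoint 1 in 2D culture all 50 members had a negative log2 fold change, with a median of -0.82, and the edgeR test called 13 lower and 0 higher, against 3.22% and 2.66% of all genes. With the block it called 21 lower and 0 higher, against 7.06% and 6.59%. CDC25C, a phosphatase that activates CDK1 (chr5:138285269-138331804, reverse strand, overlapped by a gene on the other strand), had 10.1, 7.08 and 9.75 CPM at timepoint 2 and 30.4, 24.99 and 18.1 CPM at timepoint 1 in 2D culture, the largest fall among the calls (-1.45 ± 0.28, edgeR adjusted p = 0.00478). BIRC5 had 35.8, 32.7 and 47.45 CPM at timepoint 2 and 89.9, 75.4 and 96.8 CPM at timepoint 1, and UBE2S had 15.6, 17.6 and 19.9 CPM at timepoint 2 and 30.2, 28.3 and 33.7 CPM at timepoint 1. In all 3 genes every library of timepoint 2 was below every one of timepoint 1, and BIRC5 and UBE2S fell by 1.18 and 0.80 on the log2 scale (edgeR adjusted p = 0.0056 and 0.0135). The share of all genes without overlap was counted for 3D against 2D culture alone. Between timepoints, overlap is given only as a description of genes already called.

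KIF2C, a kinesin that takes microtubules apart at kinetochores, had 17.9, 14.8 and 19.9 CPM at timepoint 2 and 43.9, 38.4 and 26.6 CPM at timepoint 1 in 2D culture. CKS1B had 7.94, 6.895 and 9.34 CPM at timepoint 2 and 16.2, 14.6 and 20.5 CPM at timepoint 1. MYBL2 had 33.2, 30.25 and 44.9 CPM at timepoint 2 and 68.4, 62.6 and 71.5 CPM at timepoint 1. None of these overlapped, and they fell by 1.05, 1.09 and 0.90 on the log2 scale (edgeR adjusted p = 0.0244, 0.0255 and 0.0268). The other calls were STMN1, UBE2C, CCNB2, NUSAP1, PRC1, PLK1 and FOXM1, at -1.26 to -0.91. The number called was 2 to 8 when single libraries were left out, 2 without replicate 1 or replicate 2 of timepoint 2, and 7 with the block when replicate 1 was left out. The number of all genes called was 618 to 818 when single libraries were left out. Of the marker lists, CD68 with CD14 summed to 24.7 to 36.4 CPM at timepoint 2 and 17.4 to 20.3 CPM at timepoint 1 in 2D culture, with no overlap, while the basal epithelial, fibroblast and endothelial sums overlapped. None of the 13 mitochondrially encoded or 78 tested ribosomal protein genes was called in 2D culture over this interval. The part of the marker difference in that of the members was not tested.

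In 3D culture the members were split in direction over the same interval. At timepoint 2 against timepoint 1 their median log2 fold change was -0.14, with 20 above and 30 below 0. The edgeR test called CKS2 higher and CDC25B lower, 1 of 50 each, against 7.31% of all genes called higher and 7.76% called lower, and with the block 1 was higher and 2, CDC25B and CDC25C, lower, against 14.8% and 13.6%. CKS2 had 25.1, 23.7 and 42.0 CPM at timepoint 2 and 11.1, 8.91 and 12.1 CPM at timepoint 1 in 3D culture, with no overlap (2.83-fold, with an SE of 0.23 on the log2 scale, edgeR adjusted p = 0.000552). CDC25B had 202.1, 239.6 and 302.7 CPM at timepoint 2 and 432.0, 397.4 and 310.0 CPM at timepoint 1, also with no overlap (-0.61 ± 0.18, edgeR adjusted p = 0.0328), and was not called without replicate 1 or 2 of timepoint 1 or of timepoint 2. In 2D culture CKS2 was at 9.76, 7.86 and 11.5 CPM at timepoint 2 and 12.6, 9.715 and 10.2 CPM at timepoint 1, with overlapping groups (log2 fold change -0.16 ± 0.23). RNA composition moved in 3D culture over this interval: 9 of 13 mitochondrially encoded genes were called lower (median log2 fold change -0.875, and 10 with the block), and 36 of 78 tested ribosomal protein genes higher (median 1.05, and 71 with the block). The endothelial marker sum was 2.23 to 2.7 CPM at timepoint 2 and 3.88 to 5.11 CPM at timepoint 1 in 3D culture, with no overlap, and the other marker sums overlapped. The part of these differences in the values of the members was not tested.

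In 3D culture at timepoint 3 against timepoint 1, 48 members were above 0, with a median of 0.53, and CKS2 and UBE2S were called higher, 2 of 50, and 0 lower, against 4.07% and 6.95% of all genes. With the block 9 were higher and 1, CDC25B, lower, against 11.4% and 12.5%. UBE2S had 38.0, 44.7 and 56.6 CPM at timepoint 3 and 28.8, 26.9 and 33.85 CPM at timepoint 1, every library of timepoint 3 being higher (0.64 ± 0.18, edgeR adjusted p = 0.0299). CKS2 was at a log2 fold change of 1.55 ± 0.23. The UBE2S call was lost without replicate 1 or 2 of timepoint 1 or replicate 2 or 3 of timepoint 3. Beside them, 10 of 13 mitochondrially encoded genes were called lower (median -1.01) and 3 of 78 ribosomal protein genes higher (median 0.74). The basal epithelial sum was 5710 to 8920 CPM at timepoint 3 and 9310 to 15700 CPM at timepoint 1, the endothelial one 1.88 to 2.96 CPM and 3.88 to 5.11 CPM, and the fibroblast one 154 to 261 CPM and 125 to 153 CPM. None of the 3 overlapped, and their part in the members' values was not tested. In 3D culture at timepoint 3 against timepoint 2, all 50 members were above 0, with a median of 0.69. Of them 20 had an unadjusted p under 0.05 in the edgeR test, against 5.12% of all genes in either direction. Yet edgeR, with or without the block, DESeq2 and limma-voom called 0 members, and edgeR called 0.0% of all genes. Without the filter on low counts edgeR called 8 higher.

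In 2D culture at timepoint 3 against timepoint 1, 44 members were below 0, with a median of -0.39. The edgeR test called 0 of 50 higher and 0 lower, against 2.5% and 2.36% of all genes. Its unadjusted p was under 0.05 for 11 members, all lower, against 19.1% of all genes in either direction. CDC25C and STMN1 were called lower with the block and 0 higher, against 5.13% and 5.38%, while DESeq2 called 6 lower and limma-voom 0. At timepoint 3 against timepoint 2 in 2D culture 37 members were above 0, with a median of 0.30. The edgeR test called 0 members and 0.0% of all genes. Its unadjusted p was under 0.05 for 11 members, all higher, against 6.82% of all genes in either direction. With the block UBE2S and BIRC5 were called higher and 0 members lower, against 0.0269% and 0.0108% of all genes, while DESeq2 called 1 higher and limma-voom 0. Without replicate 3 of timepoint 3, where replicate 2 alone stands for 2D culture and is assumed to vary like the other groups, those medians were -0.81 and -0.13, and with all 18 libraries they were -0.12 and 0.68. In the fitted libraries of 2D culture CD68 with CD14 summed to 29.6 to 39.4 CPM at timepoint 3, above the 17.4 to 20.3 CPM of timepoint 1. The endothelial sum was 2.46 to 3.44 CPM at timepoint 3, below the 4.43 to 7.09 CPM of timepoint 1 and the 3.82 to 4.47 CPM of timepoint 2, and the basal epithelial sum was 10300 to 11500 CPM at timepoint 3, above the 7740 to 9820 CPM of timepoint 2. Their part in the members' values was not tested.

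The test of whether the 3D over 2D difference itself changed with time called 0 members by edgeR without the block. At timepoint 2 against timepoint 1 it called 0.0% of all genes, and at timepoint 3 against timepoint 1 it called 0.00538% with a more positive and 0.177% with a more negative difference. Unadjusted p was under 0.05 for 13 members and 24 members, against 8.73% and 8.27% of all genes in either direction. All of these members had a more positive difference at the later timepoint, and DESeq2 called 1 in each and limma-voom 0. With the block 8 were called at timepoint 2, against 0.775% of all genes (0.532% with a more negative difference). They were CKS2, CKS1B, UBE2C, UBE2S, PTTG1, BIRC5, STMN1 and MYBL2, at 0.86 to 1.66 on the log2 scale. At timepoint 3 the block called 6, against 0.538% of all genes (1.02% with a more negative difference), and 0 with all 18 libraries. They were CKS2, CKS1B, UBE2C, PTTG1, BIRC5 and STMN1. For the 3D over 2D difference at timepoint 3 against that at timepoint 2, edgeR with or without the block, DESeq2 and limma-voom called 0 members. In the edgeR test 3 members had an unadjusted p under 0.05, against 4.67% of all genes. Without the filter on low counts edgeR called 3 members. The comparisons at timepoints 2 and 3 share the libraries of timepoint 1.

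The size of the difference at timepoint 2 went with transcript length. Over the 50 members the log2 fold change correlated with the log2 length of the main transcript at a Pearson r of -0.68 (Spearman rho -0.75). Over the 18398 tested genes with a length the Pearson r was -0.20 (Spearman rho -0.335). Genes share the libraries and are not independent, so no p is given. The 7 members with transcripts under 1500 bases had a median of 1.19, the 32 of 1500 to 4000 bases 0.66 and the 11 over 4000 bases 0.42, where the medians of all genes were 0.27, 0.01 and -0.25. At timepoint 3, in the fitted libraries, r was 0.17 over the members (Spearman rho 0.06) and -0.05 over all genes with a length (Spearman rho -0.09). The classes of members stood at 1.04, 0.99 and 1.43, where the medians of all genes were 0.11, 0.01 and -0.06. The length classes were not compared with the left-out library included. With an offset for transcript length in each library, an alternative added after the data were seen, the median member was at 0.67 at timepoint 2 and 1.00 at timepoint 3, and 11 and 23 members passed when it was combined with the block.

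**Figure D5:**
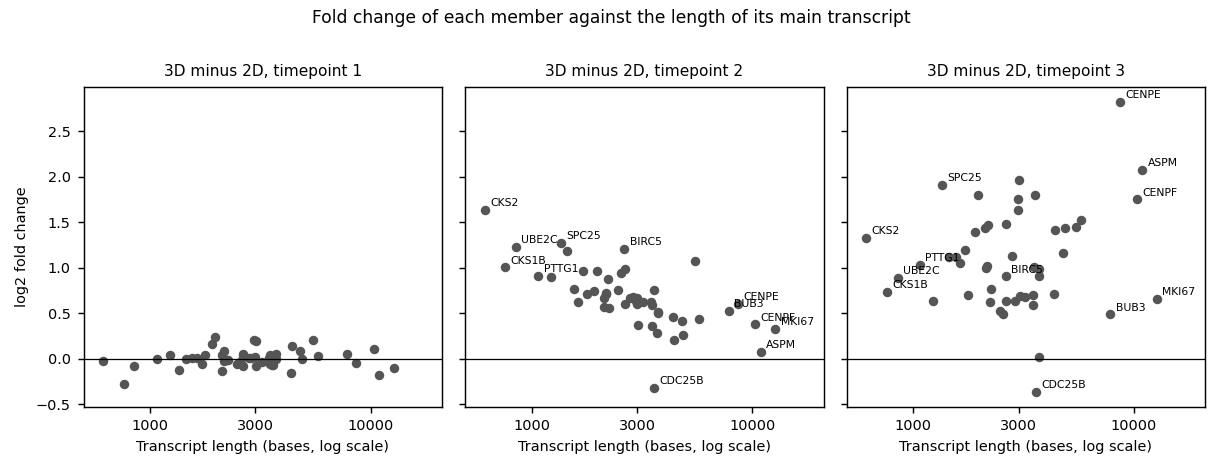
Log2 fold change of 3D over 2D culture for each of the 50 members against the length of its main transcript in GENCODE v29 on a log axis, at timepoints 1, 2 and 3. At timepoint 2 the short transcripts of CKS2, UBE2C and SPC25 lie highest and the long one of ASPM near 0. At timepoint 3 the long transcripts of CENPE and ASPM lie highest in the fitted libraries, while the left-out 2D library lay within the 3D range for both.

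RNA composition differed between the cultures at timepoint 2 as well. Mitochondrially encoded genes took 0.232% to 0.357% of counts in 3D culture and 0.691% to 0.948% in 2D culture, and cytosolic ribosomal protein genes 13.6% to 18.8% in 3D culture and 9.05% to 11.2% in 2D culture, with no overlap in either. At timepoint 3 mitochondrially encoded genes took 0.263% to 0.390% in 3D culture and 0.442% to 0.573% in 2D culture, and ribosomal protein genes 13.1% to 15.3% in 3D culture and 10.1% to 11.8% in 2D culture, the left-out library included, again with no overlap in either. Of the cell type markers, the summed basal epithelial level at timepoint 3 was 5710 to 8920 CPM in 3D culture and 10300 to 11500 CPM in 2D culture, that of CD68 with CD14 at timepoint 3 was 21.0 to 28.2 CPM in 3D culture and 29.6 to 39.4 CPM in 2D culture, and the endothelial one at timepoint 2 was 2.23 to 2.7 CPM in 3D culture and 3.82 to 4.47 CPM in 2D culture, all in the fitted libraries and with no overlap. The part of these differences in those of the members was not tested. Exons of 18 members overlap another annotated gene, 14 of them on the opposite strand, and 12 members have named copies in the table. No source used here gives the strand of counting, so the counts of these members are uncertain to that degree.

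Other genes of the pathway were described from lists of textbook members. Of 29 other kinetochore and centromere genes, 26 were above 0 for 3D over 2D culture at timepoint 2 (median 0.69) and 28 at timepoint 3 (median 0.95). CENPN, a centromere protein, was called at both (0.825 and 0.95) and SPDL1, which brings dynein to kinetochores, at timepoint 3 (1.40), and the block called 14 at each. Of 14 condensin, cohesin and separase genes none was called in either, with medians of 0.29 and 0.53 and 1 call with the block at each. Of 14 regulators of mitotic entry and exit none was called, with medians of 0.52 and 0.56, and the block called 2 and 1. WEE1, the kinase that holds CDK1 inactive, was at -0.36 and 0.06 for 3D over 2D culture. At timepoint 2 against timepoint 1 it fell by 0.99 on the log2 scale in 3D culture (edgeR adjusted p = 0.00547), where 7.76% of all genes were called lower. In 2D culture WEE1 was at -0.56 over that interval and was not called (edgeR adjusted p = 0.142). The change of its culture difference was not called either (-0.44, edgeR adjusted p = 0.679). The 15 APC/C subunits and coactivator, through which UBE2C and UBE2S act, had medians of 0.09 and 0.33 with 0 calls, and 5 and 4 with the block, and the 11 DREAM and RB family genes had 0.22 and 0.42 with 0 calls, and 2 and 0 with the block. The share of all genes called higher was 0.705% at timepoint 2 and 0.231% at timepoint 3, and 9.0% and 4.45% with the block.

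Genes of G1 and S phase lay in the same direction. Of 39 G1-S and replication genes all were above 0 for 3D over 2D culture at timepoints 2 and 3, with medians of 0.65 and 0.55, 4 and 0 were called, against 0.705% and 0.231% of all genes, and 28 and 20 with the block, against 9.0% and 4.45%. TK1, E2F1 and CDT1 were at 0.99, 0.89 and 0.88 at timepoint 2, while the cyclins CCND1 and CCNE2, at 0.27 and 0.82, did not pass. Of 6 CDK inhibitors 5 passed the filter, with medians of -0.17 and -0.24. CDKN1A (p21), an inhibitor of cyclin-dependent kinases, was called lower in 3D culture at timepoint 3, at 131.9 ± 10.3 CPM in 3D culture (SD, n = 3) and 265.2 ± 2.93 CPM in 2D culture (SD, n = 2), a log2 fold change of -1.01 ± 0.17 (edgeR adjusted p = 0.00629), where 1.26% of all genes were called lower, and CDKN1B (p27), at 0.04, did not pass. In 2D culture at timepoint 2 against timepoint 1, where 3.22% of all genes were called lower (7.06% with the block), 8 of the 39 G1-S and replication genes were called lower, with a median of -0.55, and 22 lower and 1 higher with the block. LIG1, TK1 and TYMS, of DNA ligation and thymidine nucleotide synthesis, were at -1.05, -1.03 and -1.25. Of the kinetochore and centromere genes CENPP, CENPM and SPC24 were called lower, at -0.95, -0.94 and -0.68, and 9 of 29 with the block. Of the regulators of mitotic entry and exit PKMYT1, NEK2 and GTSE1 were called lower, at -0.99, -1.35 and -0.98, and 4 of 14 with the block. Of condensin and cohesin NCAPH2, NCAPD2 and NCAPG2 were called lower, at -0.71, -0.73 and -1.03, and 5 of 14 with the block. The DREAM and RB list and the CDK inhibitors had 1 call lower each, LIN52 and CDKN2D, at -1.06 and -0.92, and the APC/C subunits had 0, and 3 lower and 1 higher with the block.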

How the data were processed

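Poly-A RNA was sequenced as single-end reads in 18 libraries of 6 groups. The submitters' processing notes name STAR 2.7.1a, HOMER, edgeR, limma and the build hg38 without saying what each did. The deposited gene counts are whole numbers with no normalisation by the authors, and 0 sample columns were left unused. The deposited per-timepoint tables give the authors' log2 fold changes, p-values and adjusted p-values of 3D minus 2D culture, and per the file headers their t and B scores, which were not used. Of the authors' log2 CPM table the library totals in its header were used.

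Counts of 17 libraries were filtered with filterByExpr (18592 genes), scaled by TMM and tested in 1 fit of 6 group means by quasi-likelihood in edgeR (version 4.0.16, R 4.3.3) at a Benjamini-Hochberg adjusted p under 0.05 over all genes tested; the standard error is the log2 fold change divided by the square root of F. Alternatives used DESeq2 1.42.0, limma-voom 3.58.1, other scalings, filters and libraries, and a block for the replicate number. Each number carries 1 date in the labels, and same-numbered 3D and 2D libraries deviated together from their group means at every timepoint (correlations over genes 0.186 to 0.513). The block fits 1 shift per replicate number for all timepoints, which correlations within a timepoint do not test. By the median member, replicate 3 was the lowest at timepoint 1 (-0.24 in 3D and -0.31 in 2D culture) and the highest at timepoint 2 (0.33 and -0.27). On simulated data for timepoint 2, drawn without an effect of replicate number, no changed gene was called in the wrong direction. That does not measure missed or false calls in these libraries. Values in every library are given for called members, up to 6 of smallest p per comparison, and for the member of smallest p in each role at timepoint 3. Other members are given by role, and non-members by lists of up to 3 called genes. Lengths came from GENCODE v29 principal transcripts. Library totals of 9.31 M to 17.7 M set the depth. One of the cell type markers is not reported here. The members and the lists were chosen with earlier results of these data known.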

Additional observations from a re-analysis of the deposited data

Results flagged for a closer look

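In the edgeR fit blocked on replicate number, the change of the 3D over 2D difference from timepoint 1 to a later timepoint passed the edgeR test for 8 members at timepoint 2 and 6 at timepoint 3, while the fit without the block called none of them. On the log2 scale the change at timepoint 2 was 1.66 for CKS2, 1.28 for CKS1B, 1.28 for UBE2C, 1.18 for BIRC5, 0.983 for STMN1, 0.982 for UBE2S, 0.915 for MYBL2 and 0.856 for PTTG1. At timepoint 3 it was 1.37 for CKS2, 1.18 for STMN1, 1.06 for CKS1B, 1.02 for PTTG1, 0.993 for UBE2C and 0.918 for BIRC5. In the library of 2D culture, timepoint 3, replicate 1, which the tests did not use, the median member was 0.797 higher on the log2 scale than the mean of the other 2D libraries of that timepoint, where the median of all genes was 0.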

How the results depend on the processing

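No called result changed direction under any alternative run. Uncalled medians near 0 did: leaving out single libraries gave -0.168 to 0.18 for 3D over 2D culture at timepoint 1, -0.337 to 0.122 for timepoint 2 against timepoint 1 in 3D culture and -0.126 to 0.614 for timepoint 3 against timepoint 2 in 2D culture. The median log2 fold change of the members, 3D over 2D culture, was 0.445 to 0.894 at timepoint 2 and 0.698 to 1.49 at timepoint 3 when single libraries were left out. Of 390 values of single genes under alternatives, 286 kept their side of the threshold and 104 lost the call. The planned offsets for transcript length, alone and with the block, were not run in the form planned, because the count table gives gene spans only. Offsets from annotated transcripts, all 18 libraries with the block, and the block without replicate 1 were added after the data were seen. The causes of the changes below were not tested. Shares of all genes called are given for the main fit and the replicate block alone. Counts of members under the other alternatives cannot be weighed against all genes, except where single libraries were left out. Depth is limited by library totals of 9.31 M to 17.7 M.

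For 3D over 2D culture at timepoint 2, 5 members were called higher, and 17 with the replicate block, 17 with all 18 libraries and the block, 11 with the block and the length offset, 18 with no filter, 12 by DESeq2, 3 with RLE scaling and 3 with all 18 libraries. At timepoint 3, 1 was called, and 19 with the replicate block, 11 with all 18 libraries and the block, 23 with the block and the length offset, 8 with the block without replicate 1, 3 with the length offset, 33 with no filter, 22 by DESeq2, 8 with the compared groups alone and 0 with all 18 libraries.

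Within 3D culture, the 1 call higher at timepoint 2 against timepoint 1 kept its number in each alternative. The 1 call lower became 5 with no filter, 2 with the replicate block, 2 with all 18 libraries and the block, 2 with the block and the length offset, and 0 with the length offset, the compared groups alone or the block without replicate 1. For timepoint 3 against timepoint 1 the 2 calls higher became 15 with no filter, 9 with the replicate block, 10 with all 18 libraries and the block, 11 with the block and the length offset, 6 with the block without replicate 1 and 1 with the compared groups alone. Calls lower there were 0, and 1 with the replicate block, with all 18 libraries and the block, or by DESeq2. For timepoint 3 against timepoint 2 the 0 calls became 8 with no filter and 1 with the block and the length offset.

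Within 2D culture, the 13 calls lower at timepoint 2 against timepoint 1 became 32 with no filter, 21 with the replicate block, 24 with the block and the length offset and 7 with the block without replicate 1. At timepoint 3 against timepoint 1 the 0 calls lower became 14 with no filter, 2 with the replicate block, 2 with all 18 libraries and the block, 1 with the length offset, 2 with the block and the length offset, 6 by DESeq2 and 1 with the block without replicate 1. At timepoint 3 against timepoint 2 the 0 calls higher became 2 with no filter, 2 with the replicate block, 3 with all 18 libraries and the block, 2 with the block and the length offset and 1 by DESeq2, and 1 was lower with no filter.

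For the change of the culture difference with time, the 0 calls at timepoint 2 against timepoint 1 became 4 with no filter, 8 with the replicate block, 5 with all 18 libraries and the block, 6 with the block and the length offset and 1 by DESeq2. At timepoint 3 against timepoint 1 they became 18 with no filter, 6 with the replicate block, 4 with the block and the length offset and 1 by DESeq2, and at timepoint 3 against timepoint 2 they became 3 with no filter. In the comparisons not named here the block changed no count.

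When single libraries were left out, the number called was 0 to 6 higher at timepoint 2 and 0 to 1 higher at timepoint 3 for 3D over 2D culture. It was 0 to 2 lower at timepoint 2 and 1 to 3 higher and 0 to 1 lower at timepoint 3, each against timepoint 1 in 3D culture. In 2D culture it was 2 to 8 lower at timepoint 2 and 0 to 3 lower at timepoint 3 against timepoint 1. The number of all genes called was 0 to 216 at timepoint 2 and 35 to 315 at timepoint 3 for 3D over 2D culture. Against timepoint 1 in 3D culture it was 1252 to 3606 at timepoint 2 and 1131 to 2749 at timepoint 3. In 2D culture the matching numbers of all genes were 618 to 818 and 196 to 858.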
